A study of Drosophila melanogaster with 2 samples.

Results

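The nuclear genes for the protein subunits of oxidative phosphorylation were examined for binding by Ocelliless (Oc), the Drosophila orthodenticle homeodomain protein that patterns the head and the central nervous system. The genes were chosen by name from the Ensembl annotation: protein-coding, nuclear, and with a symbol that begins with ND-, UQCR-, COX followed by a digit, or ATPsyn. This gave 80 of 13968 protein-coding genes, of which 40 belong by name to complex I, 9 to complex III, 16 to complex IV and 15 to complex V. No binding value entered this naming rule, though the group was chosen with earlier results of these data known. By their names, 59 are canonical subunit genes and 21 carry a name that ends in L or in L and a digit, as paralogs of the subunits do. Subunit genes with other symbols, such as ox, levy and blw, fall outside this rule and are described later.

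Binding was measured by chromatin immunoprecipitation and sequencing of whole Drosophila melanogaster embryos, 2 to 14 hours old, of a transgenic line that stably carries Oc joined at its C-terminal end to GFP. The chromatin was sonicated and precipitated with an antibody to GFP. There was 1 group with 2 libraries, labelled biological replicates 2 and 3, and 1 control alignment entered both peak lists, so no condition was compared with another. The promoter that drives the fusion, its level relative to the fly's own Oc and the number of embryos per library are not given in the sources used here, and in whole embryos the cells that carry Oc cannot be told apart from those that do not.

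Oxidative phosphorylation takes place in the inner mitochondrial membrane. Complexes I, III and IV pass electrons from NADH through ubiquinone and cytochrome c to oxygen and pump protons, and complex V, the ATP synthase, uses the proton gradient to make ATP. A few subunits are encoded in mitochondrial DNA and most in the nucleus, among them every gene described here. These genes are used by nearly all cells, and in Drosophila many have second copies with expression biased to the testis.

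The deposited peak lists give a summit, the base of highest enrichment, and a signal value for each peak. A gene was counted as having a summit when a summit lay within 500 bp of any of its annotated transcript starts. The list filtered by the irreproducible discovery rate (IDR), a measure of how alike peaks rank in the replicates, held 5844 peaks with signals of 146 to 2816. The list from the pooled replicates held 30000 peaks down to a signal of 34.5, and the IDR peaks were the 5844 strongest of it. Each replicate's own list also held 30000 peaks.

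Of the 80 subunit genes, 9 had an IDR summit (11.2%, 95% Wilson interval 6.03% to 20%), against 2047 of all 13968 protein-coding genes (14.7%). A pooled summit was found at 19 subunit genes (23.8%, interval 15.8% to 34.1%), against 4546 of all protein-coding genes (32.5%). The intervals cover counting error over genes only. The IDR share was thus close to that of protein-coding genes in general, and the pooled share was lower by a margin that was not tested. All 19 genes were canonical: 9 of 59 canonical genes had an IDR summit (15.3%) and 19 had a pooled one (32.2%). Neither list had a summit at any of the 21 genes with paralog-type names, a count of 0 that allows a share of up to 14.3%. Limits for a count of 0 are 3 divided by the number of genes, a rough bound that treats genes as independent.

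**Figure D1:**
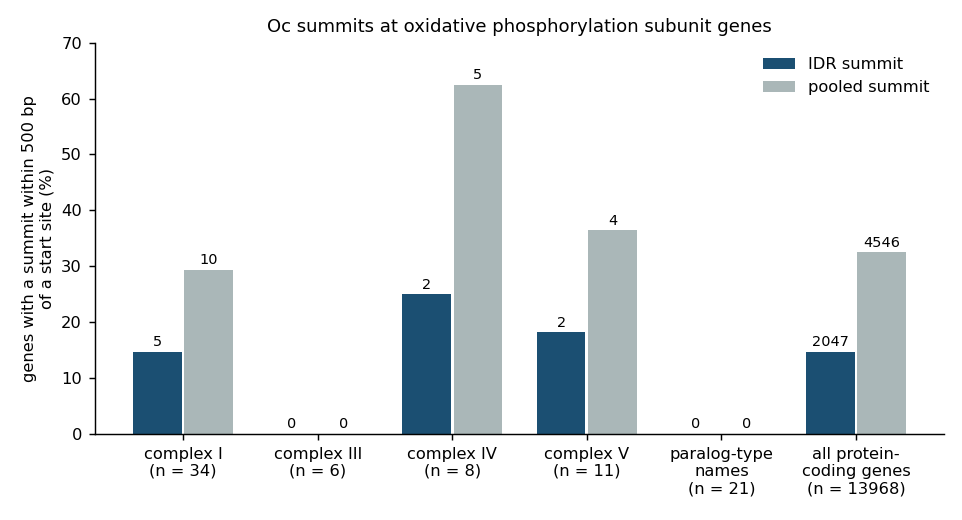
Share of genes (y axis, percent) with an IDR summit or a pooled summit within 500 bp of a start site, for the canonical genes of each complex, the genes with paralog-type names and all protein-coding genes, with the number of genes written on each bar. The complexes hold only genes with a symbol of the naming rule, so ox, RFeSP and Cyt-c1 are not in complex III here. Complex III, so counted, and the paralog-type genes are at 0 in both lists. Complex IV has the highest pooled share, 5 of 8 genes.

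The sequences under 4 of the 9 IDR summits are shown because they carry the strongest peaks and the only listed motif repeated near these summits. They are stretches free of annotated exons from the dm6 genome, each read 5′ to 3′ on its subunit gene's strand. Capitals mark a match to the nuclear respiratory gene element, here TTACATAA, TTACGTAA, TTATATAA or TTATGTAA on either strand, a motif reported upstream of fly mitochondrial genes.
ND-ASHI, chrX:6679289-6679439, minus strand: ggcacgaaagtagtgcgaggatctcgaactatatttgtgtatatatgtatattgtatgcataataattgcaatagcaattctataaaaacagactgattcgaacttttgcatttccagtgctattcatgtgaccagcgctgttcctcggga
ND-51, chr2L:6062762-6062912, minus strand: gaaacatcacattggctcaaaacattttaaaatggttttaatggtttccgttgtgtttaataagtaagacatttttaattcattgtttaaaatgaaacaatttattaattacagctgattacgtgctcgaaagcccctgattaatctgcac
ND-MNLL, chrX:7893799-7893925, minus strand: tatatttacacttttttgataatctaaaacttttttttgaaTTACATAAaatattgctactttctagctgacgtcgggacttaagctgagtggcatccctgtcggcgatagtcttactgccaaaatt
ND-SGDH, chr3L:12138585-12138699, minus strand: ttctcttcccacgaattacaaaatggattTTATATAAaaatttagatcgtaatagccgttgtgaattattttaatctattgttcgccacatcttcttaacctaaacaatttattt
The summit is base 76 of each stretch. The 4 stretches are rich in A and T, with 37.7% G and C at ND-ASHI, 29.8% at ND-51, 33.9% at ND-MNLL and 27.0% at ND-SGDH.

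Complex I takes electrons from NADH, and 5 of its 34 canonical genes had an IDR summit (14.7%), the same share as all protein-coding genes to 3 digits. The strongest peak of the whole group lay at ND-ASHI (FBgn0029888, chrX:6677262-6679118), an accessory subunit of the membrane arm. Its signal was 240 in replicate 2, 254 in replicate 3 and 488 in the pooled list, where it ranked 580. The summit at chrX:6679364 lay 246 bp upstream of the nearest ND-ASHI start, inside an intron of Fum1, which encodes fumarase, an enzyme of the citrate cycle. The replicates gave this peak nearly equal signals, at rank 711 in replicate 2 and rank 449 in replicate 3.

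ND-51 (FBgn0031771, chr2L:6060842-6062757) encodes the flavoprotein subunit that binds NADH. Its summit, at chr2L:6062837 and 80 bp upstream of its start in intergenic DNA, had a signal of 185 in replicate 2, 138 in replicate 3 and 334 in the pooled list, rank 1264. ND-MWFE (FBgn0085468, chr2R:13158666-13160190), a small accessory subunit, had signals of 178, 127 and 309 in replicate 2, replicate 3 and the pooled list, with rank 1488. Its summit at chr2R:13158500 lay 166 bp upstream, in an intron of the peptidase gene TppII, and was nearer to a TppII start, at 55 bp, than to its own. In both genes replicate 2 gave the higher signal, as it did at ND-MNLL and ND-SGDH.

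ND-MNLL (FBgn0029971, chrX:7893053-7893798) and ND-SGDH (FBgn0011455, chr3L:12137496-12138584), accessory subunits of the membrane arm, had the weaker complex I peaks. ND-MNLL had signals of 105 in replicate 2, 77.4 in replicate 3 and 183 pooled, rank 4006, with the summit 52 bp upstream of a start that it shares with CG45089. ND-SGDH had 89.3 in replicate 2, 78.1 in replicate 3 and 179 pooled, rank 4174, with the summit 40 bp upstream. These are the 2 genes whose summits had a nuclear respiratory gene element within 50 bp.

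In complex V, the catalytic and rotary ATP synthase, 2 of 11 canonical genes had an IDR summit (18.2%, against 14.7% of all protein-coding genes). ATPsyngamma (FBgn0020235, chr3R:29747704-29749163), the central shaft that turns inside the catalytic head, had signals of 149 in replicate 2, 121 in replicate 3 and 272 pooled, rank 1921. Its summit at chr3R:29748933 lay 64 bp upstream of the more downstream of its starts and inside the 5′ untranslated region of the longer transcript. ATPsynF (FBgn0035032, chr2R:24599088-24599821), a subunit of the membrane part, had the weakest IDR peak of the group, with signals of 74.4 in replicate 2, 101 in replicate 3 and 171 pooled, rank 4539. ATPsynbeta, the catalytic subunit, had none, and it lies on chromosome 4, where the nearest pooled summit was 45.8 kb away.

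In complex IV, cytochrome c oxidase, 2 of 8 canonical genes had an IDR summit (25.0%, against 14.7% of all protein-coding genes). COX7B (FBgn0040793, chr3L:17425477-17426282) had signals of 116 in replicate 2, 136 in replicate 3 and 260 pooled, rank 2095, with the summit in intergenic DNA 90 bp upstream. COX5A (FBgn0019624, chr3R:11819359-11820299) had 115 in replicate 3 and 243 pooled, rank 2393, with the summit 100 bp inside the gene in its intron. The list of replicate 2 had no summit within 500 bp of COX5A, and its nearest lay 6512 bp from the pooled summit. At the other 8 genes the pooled signal was 0.975 to 1.07 times the sum of the replicates' signals, whereas at COX5A it was 2.11 times the signal of replicate 3 alone. The reason was not tested, so COX5A rests on 1 replicate list and on the pooled list.

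Complex III, the cytochrome bc1 complex that hands electrons to cytochrome c, had no summit in either list at its 6 canonical genes with a UQCR- symbol or its 3 genes with paralog-type names. Replicate 3 alone had summits at UQCR-C2, a core subunit (signal 90.1, rank 4052, 74 bp downstream of the start), and at UQCR-Q, a small ubiquinone-site subunit (signal 54.5, rank 9072, 88 bp upstream). Replicate 2 had none near either gene, and its nearest summits lay 3923 bp from UQCR-C2 and 4590 bp from UQCR-Q. Of the complex III subunits with other symbols, given below, ox had an IDR summit and RFeSP a pooled one.

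The other 10 genes with a pooled summit had lower signals, and their ranks in the pooled list ran over the part that IDR did not keep. COX6B, the subunit that in mammals joins the oxidase dimer, came first with a pooled signal of 123 at rank 7519, 65 bp upstream, with 64.1 in replicate 3 and no summit in replicate 2. ATPsynCF6, a part of the peripheral stalk, had a pooled signal of 116 (rank 8122), with 54.9 in replicate 2 and 64.6 in replicate 3. COX5B had a pooled signal of 109 (rank 8822), with 78.4 in replicate 2 but 28.1 in replicate 3. COX7C followed with a pooled signal of 105 (rank 9318) and ATPsynC, the subunit that forms the membrane ring of the synthase, with 91.0 (rank 11210). With these, 5 of 8 canonical complex IV genes (62.5%) and 4 of 11 canonical complex V genes (36.4%) had a pooled summit. The share of all protein-coding genes was 32.5%, so complex V was near the background. Of the 8 complex IV genes, 7 had a protein-coding start on the opposite strand within 500 bp. Of all protein-coding genes with such a start, 39.4% had a pooled summit. COX5A and COX6B had no summit in replicate 2, and the complex IV share was not tested.

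The 5 remaining genes belong to complex I, which then had 10 of 34 canonical genes with a pooled summit (29.4%, against 32.5% of all protein-coding genes). ND-15, a small accessory subunit, had a pooled signal of 63.9 (rank 16734), 77.2 in replicate 3 and no summit in replicate 2. ND-B8 had 59.2, ND-75, the largest iron-sulfur subunit, had 52.6, ND-39 had 39.5, and ND-ACP, the mitochondrial acyl carrier protein, had 38.3 with no summit in replicate 2. The last 4 had pooled ranks of 18087, 20373, 26723 and 27401 out of 30000, so they lay in the lower part of the list.

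**Figure D2:**
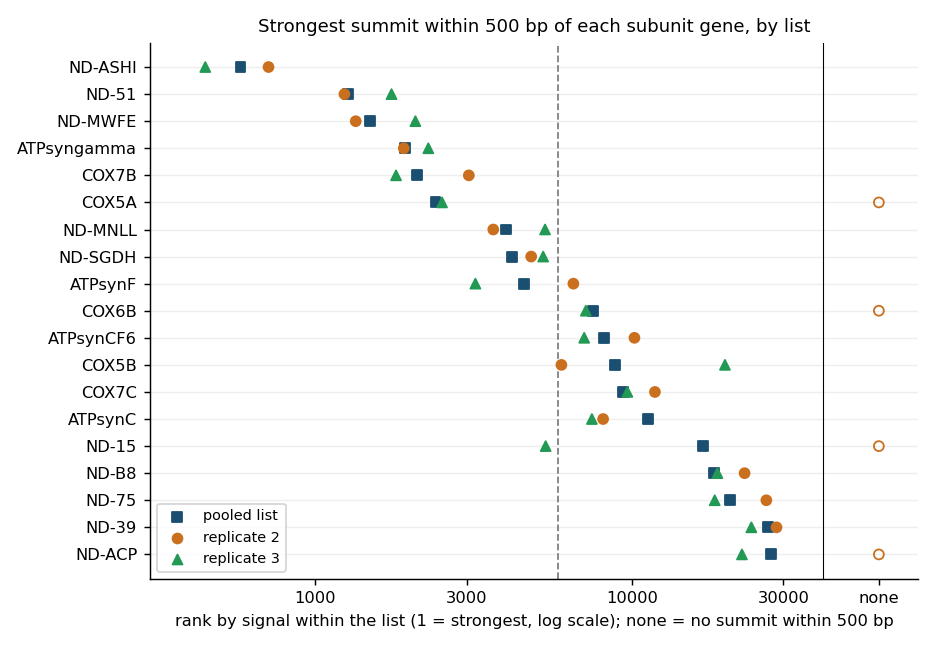
Rank by signal (x axis, log scale, 1 is the strongest peak of its list) of the strongest summit within 500 bp of each of the 19 genes with a pooled summit, in the pooled list (squares), replicate 2 (circles) and replicate 3 (triangles). The dashed line is rank 5844, the size of the IDR list, and open circles in the column marked none show COX5A, COX6B, ND-15 and ND-ACP, which had no summit in replicate 2.

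The lists of the replicates were compared next, as the only measure of error in these data. Replicate 2 had a summit at 17 subunit genes (21.2%), against 4597 of all protein-coding genes (32.9%), and replicate 3 at 24 subunit genes (30%), against 5222 of all genes (37.4%). This gave 25.6% ± 6.19 for the subunit genes and 35.1% ± 3.16 for all protein-coding genes (SD, n = 2 replicates). Among the 5844 strongest peaks of each list, replicate 2 had summits at 7 subunit genes (8.75%), against 1986 of all genes (14.2%), and replicate 3 at 12 (15%), against 2237 (16.0%). That is 11.9% ± 4.42 for the subunit genes and 15.1% ± 1.27 for all protein-coding genes (SD, n = 2). Both shares of a replicate come from the same library, so these SDs do not measure the error of their difference. In each replicate the subunit share was the lower one, in the whole list and among the strongest peaks. With 2 libraries of 1 group, neither difference was tested.

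Both replicates had a summit at 15 of the subunit genes, and at least 1 replicate had one at 26, against 3921 and 5898 of the 13968 protein-coding genes. Over the 15, the ranks differed by 262 at ND-ASHI and by up to 13633 at COX5B, with ND-75 (8285) and ND-39 (4763) next. The log2 signals of the replicates followed each other over these 15 genes, with Pearson's r of 0.898 and Spearman's rho of 0.886 as a description, since the points share both libraries and the control. Replicate 3 alone also had summits at ND-42 (signal 80.7, rank 4932, 95 bp upstream), ATPsynD (62.5, rank 7408, 110 bp upstream) and ND-B18 (17.6, rank 29892). Replicate 2 alone had the only summits of the group at paralog-type genes, at COX7AL2 (signal 52.5, rank 10780) and UQCR-6.4L (41.0, rank 14781), both more than 400 bp from a start.

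By the counting rule, the 9 IDR summits all lay within 500 bp of a start. Their median distance from a start of the subunit gene was 80 bp (range 40 to 246, 9 genes), against 131 bp over all protein-coding genes with an IDR summit. The median signal was 260 (range 171 to 488), against 244 (146 to 2816) over all such genes, so the peaks were of ordinary strength. The farthest gene inside the limit was ND-ASHI, 246 bp upstream, and the nearest outside it was ND-B14.5AL, 525 bp upstream, followed by COX7AL2 at 606 bp upstream and UQCR-6.4L at 1008 bp downstream. No subunit gene therefore had its nearest IDR summit between 246 and 525 bp.

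**Figure D3:**
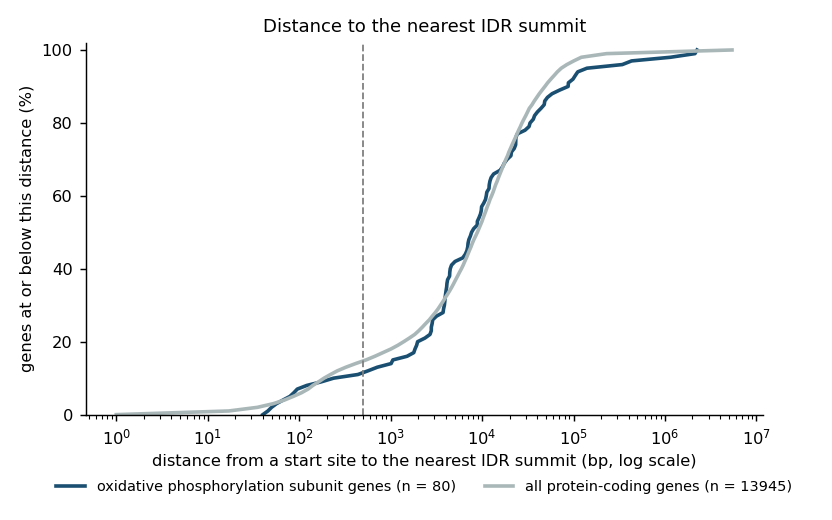
Share of genes (y axis, percent) whose nearest IDR summit lies at or below a given distance from a start site (x axis, bp, log scale), for the 80 subunit genes and for the 13945 protein-coding genes on chromosomes with a summit. The dashed line is 500 bp, and the medians are 7674 bp for the subunit genes and 8881 bp for all protein-coding genes.

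By the nearest IDR summit, the subunit genes had a median distance of 7674 bp, against 8881 bp for all protein-coding genes, and by the nearest pooled summit 3934 bp, against 2733 bp. With each IDR summit given to whichever protein-coding gene started nearest, 14 subunit genes received at least 1 (17.5%), against 2961 of all genes (21.2%). Of the 14, 7 received one within 500 bp and 7 only farther ones. The second kind included COX7AL2 and ND-B14.7 with 4 summits each, ND-20L and ND-B14.5AL with 2 each, and COX4, COX7C and UQCR-6.4L with 1 each. ND-MWFE and COX5A received none, because their summits were nearer to a TppII start and, by 39 against 100 bp, to a glo start.

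Every one of the 9 genes with an IDR summit had a protein-coding neighbour on the opposite strand with a start within 500 bp of one of theirs, against 840 of the 2047 protein-coding genes with an IDR summit (41.0%). In each case the same summit also lay within 500 bp of a start of that neighbour. At ND-ASHI these were different Fum1 starts: the one 276 bp from the summit lay more than 500 bp from every ND-ASHI start, and the one 164 bp from an ND-ASHI start lay more than 500 bp from the summit. The neighbours were Fum1 at ND-ASHI, TppII at ND-MWFE, CG13994 at ND-51, p115 (a Golgi vesicle tether) at ND-MNLL, RhoGAP68F at ND-SGDH, yata at ATPsyngamma, CG3548 at ATPsynF, Sec3 (a subunit of the exocyst) at COX7B and glo (an RNA-binding protein) at COX5A. The nearest starts of a pair were 20 bp apart at COX5A and 284 bp at ND-SGDH, with the others between. A summit at such a pair cannot be given to either gene from position alone. This split by the opposite strand was chosen after the values were seen.

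**Figure D4:**
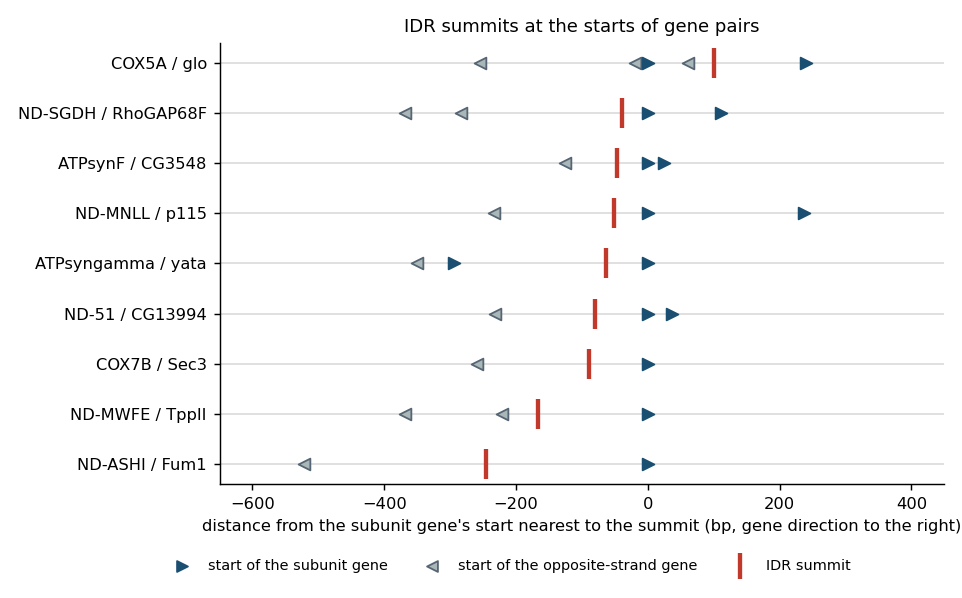
Position of the IDR summit (bar) relative to the annotated starts of each of the 9 subunit genes (filled arrowheads) and of its opposite-strand neighbour (grey arrowheads), with 0 at the subunit gene's start nearest to the summit (x axis, bp, gene direction to the right). At 8 genes the summit lies between 0 and a neighbour start to its left, at COX5A it lies 100 bp inside the gene, and starts beyond the axis limits (of ND-ASHI, Fum1 and TppII) are not drawn.

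Opposite-strand starts are frequent in this gene group. Such a start was present at 39 of the 80 subunit genes (48.8%), against 3878 of all protein-coding genes (27.8%), and it was split by name: 36 of 59 canonical genes (61.0%) and 3 of 21 genes with paralog-type names (14.3%). Among the genes that had one, 9 of 39 subunit genes had an IDR summit (23.1%, interval 12.6% to 38.3%), against 21.7% of all such protein-coding genes. Among the genes without one, 0 of 41 subunit genes had an IDR summit, a count that allows up to 7.32%, against 12.0% of all such protein-coding genes. For canonical genes alone the split was 9 of 36 (25.0%) with an opposite-strand start and 0 of 23 without, which allows up to 13.0%.

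The pooled list was split in the same way. A pooled summit was present at 16 of the 39 subunit genes with an opposite-strand start (41.0%), against 39.4% of all such protein-coding genes, and at 3 of the 41 without one (7.32%), against 29.9%. For canonical genes alone the counts were 16 of 36 (44.4%) with an opposite-strand start and 3 of 23 (13.0%) without. The 3 were ATPsynC, ND-75 and ND-ACP. COX6B, COX5B, COX7C, ATPsynCF6, ND-15, ND-B8 and ND-39 had a pooled summit, no IDR summit and an opposite-strand start. With an opposite-strand start the shares of the subunit genes were thus close to the background in both lists, and without one they were below it, a difference that was not tested.

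3 other gene groups that most cells use were set beside them, also after the values were seen. With an opposite-strand start, 10 of 53 mitochondrial ribosomal protein genes (18.9%), 19 of 33 cytosolic ribosomal protein genes (57.6%) and 3 of 24 proteasome genes had an IDR summit. Without one, 2 of 20, 20 of 54 (37.0%) and 1 of 24 had one, in the same order of groups. The total shares were 11.2% for the oxidative phosphorylation genes, 16.4% of 73 mitochondrial ribosomal, 44.8% of 87 cytosolic ribosomal and 8.33% of 48 proteasome genes, so the oxidative phosphorylation genes lay between the proteasome and the mitochondrial ribosome. No difference between these groups was tested.

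**Figure D5:**
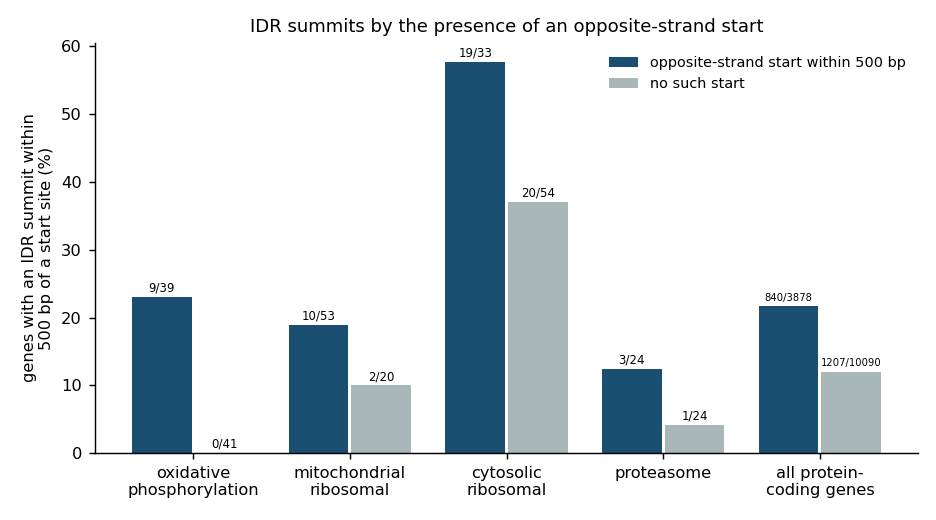
Share of genes (y axis, percent) with an IDR summit within 500 bp of a start site, split by whether a protein-coding gene on the opposite strand starts within 500 bp, for the subunit genes, 3 other gene groups and all protein-coding genes, with the counts written on the bars. The dark bar is the higher one in each set, and the subunit genes without an opposite-strand start are at 0 of 41.

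Promoter sequence was read from 250 bases before to 50 bases after each gene's 5′ end, and 7 short motifs were searched on both strands. TAATCC, the preferred site of Oc-type homeodomains, was in 7 of the 80 subunit promoters (8.75%), against 8.73% of all protein-coding promoters, and TAAGCC, a weaker site, in 12 (15%), against 11.2%. TATCGATA, the site of the replication-related element factor, was in 9 (11.2%), against 9.36%, and CACGTG was in 4 (5%), against 4.20%. GAGAGAG, the GAGA factor site, was in 1 (1.25%), against 5.86%. The nuclear respiratory gene element was in 5 (6.25%: ND-30, ND-42, ND-49, ND-MNLL and ND-SGDH), against 5.18%. The window mattered for this element: within 100 bp of the gene's 5′ end on either side it was in 9 subunit promoters (11.2%), against 2.31% of all promoters, and in 3 of the 9 with an IDR summit (ATPsyngamma, ND-MNLL and ND-SGDH). In that narrower window TAATCC was in 2 subunit promoters (2.50%), against 6.46% of all promoters, and TAAGCC in 5 (6.25%), against 7.11%. By name, TAAGCC in the wider window was in 6 of 59 canonical promoters (10.2%) and 6 of 21 with paralog-type names (28.6%). None of these differences was tested.

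GGTCACAC, a core promoter element of housekeeping genes known as Motif 1, was in 15 subunit promoters (18.8%, of which 14 canonical), against 7.69% of all promoters. It was in 3 of the 9 promoters with an IDR summit, those of COX5A, COX7B and ND-MWFE. Its copies in COX5A and COX7B, and those in COX4 and ND-18, which had no IDR summit, are shown for comparison on the gene's strand of dm6, with the motif or its reverse complement in capitals.
COX5A, chr3R:11819313-11819342, plus strand: ttgaagatgcaGTGTGACCgcaattaaatc
COX7B, chr3L:17425475-17425504, plus strand: aacaacacaacGGTCACACtgttcaacaca
COX4, chr2L:19958640-19958669, plus strand: attcgagatgtGGTCACACttctctgcatg
ND-18, chrX:19492407-19492436, plus strand: accgctcgcctGGTCACACtggcactggcg
COX5A carries the motif on the other strand than the remaining 3, and the copies lie within 62 bases of the gene's 5′ end.

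Within 50 bp of the 9 IDR summits, TAATCC was found at 0, against 5.42% of the 1808 IDR summits near protein-coding starts. TAAGCC was found at 1 (ND-MWFE), against 6.53%, and the nuclear respiratory gene element at 2, against 2.54%. The other 4 motifs were found at none of the 9. A missing match says only that these letters are not in that window. The promoters with an IDR summit had a median of 36.0% G and C, those of the other subunit genes 33.0%, and all promoters with an IDR summit 39.0%, against 38.0% for all promoters.

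Position along the chromosomes touches 5 subunit genes. ATPsynbeta and ND-49 lie on chromosome 4, and ND-MLRQ, ND-AGGG and UQCR-11 lie on 3L beyond the last pooled summit of that arm, at 22948353 of 28110227 bases. They were 391 kb (ND-MLRQ), 2028 kb (ND-AGGG) and 2172 kb (UQCR-11) from it. Peaks were called in these regions: chromosome 4 held 12 IDR and 50 pooled summits. Replicate 2 had a summit 438893 bp from ND-AGGG, beyond the last pooled summit of 3L. Whether peaks are harder to call at these 5 genes was not tested. Without genes on chromosomes 4 and Y or beyond the pooled summits of an arm, 9 of 75 subunit genes (12.0%) had an IDR summit. The count for protein-coding genes was then 2045 of 13765 (14.9%).

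Genes around the respiratory chain were taken as a listed set, drawn up with earlier results of these data known and given as a description. Of 41 listed names, 37 separate genes were found. An IDR summit was present at 9 of them (24.3%), against 14.7% of all protein-coding genes, and a pooled summit at 24 (64.9%), against 32.5%.

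The first of these were 7 subunit genes whose symbols do not follow the naming rule, of which 1 had an IDR summit and 4 a pooled one. The shares of all protein-coding genes were 14.7% and 32.5%. The IDR summit lay near ox, a small subunit of complex III, with signals of 78.7 in replicate 2, 93.3 in replicate 3 and 182 in the pooled list (rank 4057). It was 52 bp upstream of the ox start and nearer to a start of Dgkepsilon, at 35 bp. Pooled summits also lay at RFeSP, the iron-sulfur protein of complex III (57.3 in replicate 2, 59.4 in replicate 3, 130 pooled), at levy, a subunit of complex IV (64.1, 68.4 and 131 in the same lists), and at blw, the alpha subunit of the ATP synthase (67.2, 43.2 and 93.9). Cyt-c1, the cytochrome c1 subunit of complex III, had neither a pooled nor an IDR summit.

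Complex II, which passes electrons from succinate to ubiquinone, had a pooled summit at all 4 listed genes and an IDR summit at 0. The shares of all protein-coding genes were 32.5% and 14.7%. By the strongest summit of each gene, pooled ranks ran from 9152 (SdhA, signal 107, no summit in replicate 2) to 24562 (SdhB, signal 43.3). Of the 10 citrate cycle genes, 4 had an IDR summit (kdn, Idh3g, Ogdh and Fum1), against 14.7% of all protein-coding genes. Idh3g, a subunit of isocitrate dehydrogenase, had signals of 453 in replicate 2, 339 in replicate 3 and 794 pooled (rank 183), and the summit of Fum1 was the one described at ND-ASHI. Among the 6 assembly factors found was CIA30, which acts in complex I assembly. Its signals were 385 in replicate 2, 314 in replicate 3 and 706 pooled (rank 263). The CIA30 summit was nearer to a start of CG7601 than to the CIA30 start, so it cannot be given to CIA30 from position alone. Cox17, a copper chaperone of complex IV, had signals of 91.9, 84.6 and 167 in the same lists.

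The strongest peak of the listed set lay near Cyt-c-d, a cytochrome c gene, with signals of 525 in replicate 2, 565 in replicate 3 and 1087 pooled (rank 82). It lay 354 bp downstream of the Cyt-c-d start and 120 bp from a start of CG31808, so both starts were within 500 bp of it. Cyt-c-p, the other cytochrome c gene, had a pooled summit (signal 130) and no IDR summit. Of the 8 nuclear regulators, ERR, a nuclear receptor that directs a metabolic switch in mid-embryogenesis, was the only one with an IDR summit (signal 167). The share of all protein-coding genes was 14.7%.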

How the data were processed

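The authors deposited 4 peak lists in dm6, 1 per replicate, 1 of the pooled replicates and 1 filtered by IDR; per the deposited notes, each came from dm6 alignments and 1 control. Each deposited row gives a signal value and a −log10 q-value as the authors' caller wrote them, and the deposited summit offset is a position in bases. The aligner, the peak caller, its thresholds and the read depth are not given in the sources used here, so no depth-based precision can be given. The pooled list and both replicate lists hold exactly 30000 peaks, so their weakest peaks may be set by that length.

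Summits were compared with every annotated start of protein-coding genes in Ensembl release 115 (BDGP6.54, the dm6 assembly) in Python 3.11.15 (pandas 2.3.3, numpy 2.4.6, scipy 1.17.1; figures with matplotlib 3.10.9), using 500 bp, with 250 and 1000 bp as alternatives. Sequences came from the RefSeq copy of the same release 6 assembly. The scripts were tested on simulated data. ND-MNLL was counted as canonical although its name ends in L, since the letters are its peptide name. Named by rule were the genes with an IDR summit, the others with a pooled summit (up to 15, by signal), those nearest the distance limit, the 3 with the largest rank difference between replicates and the pathway genes with an IDR summit; other named genes, such as those seen in 1 replicate or far from any summit, were chosen after their values were seen. The genes and lists were chosen with earlier results of these data known. The labels call the libraries biological replicates. No set test was run.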

Additional observations from a re-analysis of the deposited data

How the results depend on the processing

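The number of subunit genes with an IDR summit was 9 at 500 bp (11.2%, against 14.7% of all protein-coding genes). It was 9 at 250 bp (11.2%, against 11.8%) and 11 at 1000 bp (13.8%, against 17.9%). When the summit had to be nearest to that gene it was 7 (8.75%, against 11.9%). It was 6 when the IDR interval had to cover a start (7.50%, against 8.71%). Keeping only the stronger part of the IDR peaks also gave 6 (7.50%, against 8.53%). Leaving out a replicate and using the other's strongest peaks gave 7 to 12 for the subunit genes and 1986 to 2237 for all protein-coding genes. For the pooled count of 19 subunit genes, the whole list of 1 replicate gave 17 to 24. The same lists gave 4597 to 5222 of all protein-coding genes, in place of 4546 in the pooled list. Of 28 alternatives, 26 stayed within 1.5 times the main count, with both subunit counts of 6 exactly at that limit. The number of all protein-coding genes with an IDR summit was 1192 in place of 2047 when the peaks of higher signal were kept and 1216 when the interval had to cover a start, each because fewer peaks or genes can then qualify. Leaving out chromosomes 4 and Y and the ends beyond the pooled summits was chosen after the data were seen. No paired analysis was possible because the 2 libraries form 1 group. Depth is unknown, so a missing summit cannot be told apart from one below the lists' limits.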
